A study of Homo sapiens with 12 samples.

Results

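The mRNAs of 10 enzymes of serine, folate one-carbon and asparagine synthesis were measured by RNA-seq in A375 cells, an established human melanoma cell line. The members were taken by gene symbol from the deposited count table, and all 10 were found among its 20263 genes: PHGDH, PSAT1, PSPH, SHMT1, SHMT2, MTHFD1, MTHFD2, MTHFD1L, ALDH1L2 and ASNS. The 12 libraries form 4 groups of 3: Ctrl, DBIC, Hemin, and DBIC with Hemin (labelled DBIC+Hemin). DBIC, written DdBIC in the study, is a dodecyl ester of a benzimidazole carboxylic acid. The study reports that it binds a nuclear receptor, lowers mitochondrial heme, activates the integrated stress response and induces pyroptosis, a form of cell death, in A375 cells. Hemin is the iron(III) form of heme, a common way to supply heme to cells. The study lowered the serum during DdBIC treatment, and whether this held for the RNA-seq cultures is not stated. Whether the Ctrl cells received a vehicle, and the dose and duration of each agent for RNA-seq, are not given in the sources used here. No genotype or transgene is named for any group, so all groups are the same cell line, and the labels do not say that the 3 libraries of a group came from separate cultures, so the p-values measure only the spread between these samples.

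Serine is made from the glycolytic intermediate 3-phosphoglycerate by PHGDH, PSAT1 and PSPH in turn. Serine hydroxymethyltransferase then moves a carbon from serine to tetrahydrofolate, yielding glycine, by SHMT1 in the cytosol and SHMT2 in mitochondria. In mitochondria MTHFD2 oxidizes that unit to the formyl level and MTHFD1L releases it as formate, ALDH1L2 oxidizes 10-formyltetrahydrofolate to CO2 with release of NADPH, and in the cytosol the trifunctional MTHFD1 takes up formate for purine and thymidylate synthesis. ASNS makes asparagine from aspartate with glutamine as the nitrogen donor. Several of these genes, ASNS and PSAT1 among them, are known targets of ATF4, the transcription factor of the integrated stress response.

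The total count per library was 37951275 to 44358912, and 14287 genes passed the filter on low counts, all 10 members among them. Levels are given as CPM, the count scaled by library size and TMM factor, and each difference is a log2 fold change with its standard error (SE) from edgeR's quasi-likelihood test, called where the Benjamini-Hochberg adjusted p over all tested genes was under 0.05. HMOX1, heme oxygenase and a known hemin-induced gene, stood at 7.99, 8.94 and 9.19 CPM in Ctrl and at 62.2, 65.5 and 61.9 CPM in Hemin, which goes with the labels. It was at 8.73, 7.26 and 7.47 CPM in DBIC. In DBIC+Hemin it was at 188, 146 and 172 CPM, above all Hemin libraries, so this gene differed between the groups given hemin. Of the melanocyte-lineage markers SOX10 was at 548 to 769 CPM, MITF at 8.31 to 21.5, S100B at 6.59 to 12.7 and S100A1 at 3.37 to 6.6 CPM. The pigment genes PMEL, MLANA, TYR and DCT had at most 1.11 CPM. PTPRC and KRT1, which mark immune cells and keratinocytes, were at 0 in all 12 libraries. Of the same lists LYZ was at 1.35 to 2.19 CPM and KRT14 at 2.62 to 3.92 CPM. The summed markers of immune cells, keratinocytes and endothelium stood at no more than 2.19, 3.92 and 2.03 CPM. In bulk samples fewer cells of a kind and less RNA per cell cannot be told apart.

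Levels between genes were compared on the authors' TPM, which is scaled by gene length. In Ctrl SHMT2 was the most abundant member at 549.9 ± 37.7 TPM (SD, n = 3), followed by PHGDH at 366 ± 6.75, PSAT1 at 279.5 ± 13.9, MTHFD2 at 208 ± 1.21, MTHFD1 at 197 ± 2.34, ASNS at 149 ± 4.46, MTHFD1L at 95.4 ± 8.26, SHMT1 at 93.2 ± 3.45, PSPH at 47.2 ± 8.81 and ALDH1L2 at 6.09 ± 0.11 TPM. Of these neighbours only MTHFD1L and SHMT1 overlapped in their ranges over the 3 Ctrl libraries. The order differed between groups in its middle: in DBIC, ASNS at 185 ± 5.67 TPM was above MTHFD1 at 170.3 ± 2.66 TPM with no overlap, as it was in DBIC+Hemin (209.6 ± 12.6 against 194 ± 0.54 TPM). In DBIC the TPM of MTHFD2 (256 ± 6.92) and PSAT1 (254 ± 16.9) overlapped. The mitochondrial SHMT2 mRNA was thus above the cytosolic SHMT1 mRNA in every library. ALDH1L1, the cytosolic counterpart of ALDH1L2, was listed at 0 TPM in 8 of the 12 libraries and at most at 0.0638 TPM in the others, so the ratio of that pair, undefined in those 8, is not given.

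Promoter windows of RefSeq (GRCh38.p14, 250 bases before to 50 after an annotated start) were matched by symbol for 7 members: PHGDH, PSAT1, SHMT1, MTHFD1, MTHFD2, MTHFD1L and ASNS. They were searched on both strands for the core of the C/EBP-ATF response element (TGATGNAA), which ATF4 and C/EBP factors are known to bind, for the E-box (CACGTG), known for MYC and USF factors, and for the core of the antioxidant response element (TGACNNNGC), known for NRF2. The 7 members have 11 windows in the table, 4 of them for MTHFD1L and 2 for ASNS. The C/EBP-ATF core was found in 4 of the 11 windows, 1 of the 2 of ASNS and 3 overlapping ones of MTHFD1L, beside 3.62% of all 35116 windows. The E-box was found in 4, that of MTHFD1 and the same 3 of MTHFD1L, beside 7.26% of all windows, and the antioxidant core in 1, that of MTHFD2, beside 13.3%. The second ASNS window held none of the 3. Each member with a match is shown by 1 window that holds it, to place the matched letters in their context, from 5′ to 3′ in the direction of the gene, with the matched letters in capitals.
ASNS, chr7:97872359-97872658, minus strand: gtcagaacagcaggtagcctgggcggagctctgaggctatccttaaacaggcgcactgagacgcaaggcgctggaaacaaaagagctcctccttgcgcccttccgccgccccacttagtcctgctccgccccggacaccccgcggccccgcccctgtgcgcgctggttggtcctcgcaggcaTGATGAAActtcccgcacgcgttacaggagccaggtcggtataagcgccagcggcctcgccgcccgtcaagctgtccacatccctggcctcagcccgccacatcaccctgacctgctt
MTHFD1L, chr6:150866236-150866535, plus strand: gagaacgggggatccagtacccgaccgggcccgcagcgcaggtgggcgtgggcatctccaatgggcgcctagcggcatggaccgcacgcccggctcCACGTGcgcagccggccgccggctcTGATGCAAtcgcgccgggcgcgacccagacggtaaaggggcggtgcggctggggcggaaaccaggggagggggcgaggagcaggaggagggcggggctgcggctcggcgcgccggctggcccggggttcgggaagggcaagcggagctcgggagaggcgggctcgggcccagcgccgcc
MTHFD2, chr2:74198365-74198664, plus strand: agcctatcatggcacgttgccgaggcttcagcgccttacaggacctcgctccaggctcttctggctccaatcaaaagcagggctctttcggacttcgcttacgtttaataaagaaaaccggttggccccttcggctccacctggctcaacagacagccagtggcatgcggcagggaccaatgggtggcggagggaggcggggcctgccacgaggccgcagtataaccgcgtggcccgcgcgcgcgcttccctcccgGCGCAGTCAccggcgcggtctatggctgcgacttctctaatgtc
MTHFD1, chr14:64388103-64388402, plus strand: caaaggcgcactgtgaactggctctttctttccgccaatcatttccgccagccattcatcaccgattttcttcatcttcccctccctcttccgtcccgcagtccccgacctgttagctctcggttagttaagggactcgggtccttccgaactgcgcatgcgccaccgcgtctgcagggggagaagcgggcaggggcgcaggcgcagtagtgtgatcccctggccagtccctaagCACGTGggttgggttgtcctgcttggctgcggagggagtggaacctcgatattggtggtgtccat
In ASNS the capitals mark the C/EBP-ATF core, which begins 68 bases before the start. In MTHFD1L they mark the E-box, 154 bases before the start, and then the C/EBP-ATF core, 129 bases before it, and 3 of its 4 listed windows overlap and hold these same bases. In MTHFD2 they mark the antioxidant core on the opposite strand, 6 bases after the start, and in MTHFD1 the E-box, 15 bases before the start. A match is a run of letters in the reference, and binding was not measured here.

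The first comparison asks what DBIC did to these mRNAs in cells without added hemin. The mitochondrial enzymes MTHFD2, SHMT2 and ALDH1L2 rose, as did ASNS, and the cytosolic enzymes SHMT1 and MTHFD1 fell together with PHGDH. Of the 10 members 4 rose and 3 fell, beside 20.0% of the 14287 tested genes called higher and 17.2% called lower. The median log2 fold change was 0.059 over the members and -0.0082 over all tested genes. With upper-quartile scaling, which moved the median of all genes to -0.07, the members split into 3 higher and 4 lower. Over all genes 2310 were then called higher and 3472 lower, against 2859 and 2451 with TMM. The members' changes were small, between -0.25 and 0.38 on the log2 scale.

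Among the serine synthesis enzymes, PHGDH, which catalyses the first step, stood at 342, 337 and 331 CPM in Ctrl and at 314, 312 and 319 CPM in DBIC. Every DBIC library was below every Ctrl library, and the log2 fold change was -0.097 ± 0.024 (SE, n = 3 per group, edgeR adjusted p = 0.00822). PSAT1, the aminotransferase of the second step, was at 294, 274 and 275 CPM in Ctrl and at 245, 248 and 272 CPM in DBIC. Its ranges did not overlap, but the difference of -0.14 ± 0.055 was not called (edgeR adjusted p = 0.0641). It was called with DBIC replicate 3 left out, the highest DBIC library (-0.19, edgeR adjusted p = 0.0216), and without DBIC+Hemin replicate 2 (adjusted p = 0.0471) or replicate 3 (adjusted p = 0.0237), which enter through the shared spread. It was also called in edgeR with upper-quartile scaling (-0.20, adjusted p = 0.0121) and with library size only (-0.16, adjusted p = 0.0444). PSPH, the phosphatase of the last step, ranged from 24.8 to 33.6 CPM in Ctrl and from 30.8 to 39.8 CPM in DBIC, and its difference of 0.24 ± 0.16 was within the spread (edgeR adjusted p = 0.27). With 1 library left out it ran from 0.10, without DBIC replicate 3, to 0.36, without Ctrl replicate 2, and was not called.

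The cytosolic one-carbon enzymes were both lower with DBIC. SHMT1 was at 78.9, 78.8 and 76.1 CPM in Ctrl and at 67.8, 64.9 and 64.3 CPM in DBIC. Its groups did not overlap, and it fell by 15.8% (log2 -0.25 ± 0.035, n = 3 per group, edgeR adjusted p = 0.000218). MTHFD1 was at 292, 291 and 287 CPM in Ctrl and at 249, 256 and 246 CPM in DBIC, again without overlap, and it fell by 13.7% (log2 -0.21 ± 0.023, edgeR adjusted p = 2.85e-05).

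Of the 4 mitochondrial one-carbon enzymes 3 were higher with DBIC. MTHFD2, the dehydrogenase and cyclohydrolase that is high in many tumours, was at 338, 345 and 332 CPM in Ctrl and at 406, 416 and 419 CPM in DBIC. It rose 1.22-fold, with no overlap (log2 0.29 ± 0.028, edgeR adjusted p = 1.37e-05). SHMT2 was at 383, 415 and 401 CPM in Ctrl and at 450.0, 445 and 435 CPM in DBIC. Its groups did not overlap either, and it rose 1.11-fold (log2 0.15 ± 0.036, edgeR adjusted p = 0.00764), a call lost with upper-quartile scaling (log2 0.087, edgeR adjusted p = 0.0898). ALDH1L2, the least abundant member, was at 20.2, 21.2 and 20.3 CPM in Ctrl and at 23.8, 29.9 and 26.7 CPM in DBIC. All DBIC libraries were above all Ctrl libraries, and it had the largest change of the 10 (log2 0.38 ± 0.092, edgeR adjusted p = 0.00704). Without DBIC replicate 2 its log2 fold change was 0.29, below the 0.31 of ASNS in that fit. MTHFD1L, the formate-releasing synthetase, was at 114, 118 and 123 CPM in Ctrl and at 118, 110.0 and 119.6 CPM in DBIC, with overlapping ranges (log2 -0.031 ± 0.057, edgeR adjusted p = 0.708).

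ASNS was at 126, 122 and 122 CPM in Ctrl and at 151, 152 and 155 CPM in DBIC. The replicates lay close together and the groups far apart, and ASNS rose 1.24-fold (log2 0.31 ± 0.038, n = 3 per group, edgeR adjusted p = 7.36e-05).

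**Figure D1:**
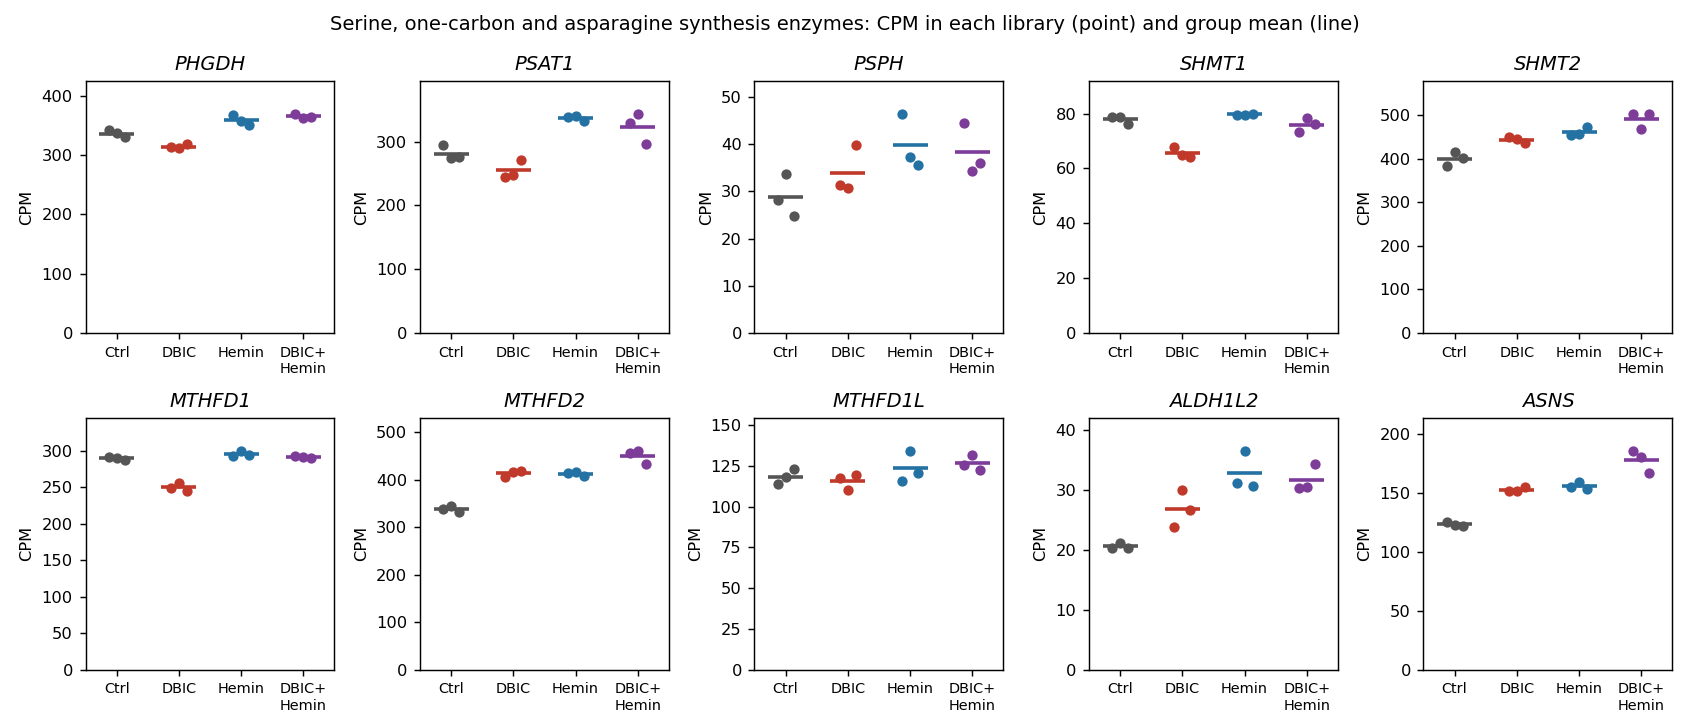
CPM (TMM-scaled, linear axis from 0) of the 10 enzymes in the 12 libraries, with 1 point per library and a line at the mean of each group of 3. SHMT1 and MTHFD1 are lowest in the 3 DBIC libraries, whereas MTHFD2 and ASNS are lowest in the 3 Ctrl libraries and highest in the DBIC+Hemin libraries.

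The second comparison asks what hemin did by itself. Hemin changed few genes in these cells, and among the members PSAT1, SHMT2, MTHFD2, ALDH1L2 and ASNS rose and none fell. These 5 of 10 stand beside 1.47% of the tested genes called higher and 2.59% called lower. Those shares are of 580 genes called in all, a number that was 272 to 373 without any 1 of the Ctrl or Hemin libraries. The members' median log2 fold change was 0.23, against 0.0026 over all tested genes. This comparison and the one of DBIC share the same 3 Ctrl libraries, so a low or high Ctrl library enters both.

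ALDH1L2 was at 31.1, 36.5 and 30.6 CPM in Hemin, all above the Ctrl libraries, and rose 1.59-fold (log2 0.67 ± 0.092, edgeR adjusted p = 0.00225). ASNS was at 155, 159 and 154 CPM (log2 0.34 ± 0.038, edgeR adjusted p = 0.000696) and MTHFD2 at 414, 416 and 408 CPM (log2 0.29 ± 0.028, edgeR adjusted p = 0.000386). For ASNS and MTHFD2 the Hemin libraries lay above all Ctrl libraries, and their ranges overlapped those of the DBIC libraries. SHMT2 was at 453, 457 and 472 CPM, also clear of Ctrl (log2 0.20 ± 0.036, edgeR adjusted p = 0.0096).

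In the serine branch PSAT1 was at 339, 340.4 and 332 CPM in Hemin, above all Ctrl libraries (log2 0.26 ± 0.055, edgeR adjusted p = 0.0223). The call was lost with fewer libraries: without Ctrl replicate 2 or 3, or without any 1 of the 3 Hemin replicates, the adjusted p was 0.0585 to 0.0928 while the log2 fold change stayed between 0.25 and 0.27. PHGDH was at 367, 358 and 350.3 CPM, above Ctrl without overlap, but at 0.092 ± 0.024 it was not called (edgeR adjusted p = 0.0601), while it was called by DESeq2 (adjusted p = 0.0343) and by edgeR with upper-quartile scaling (adjusted p = 0.0493). PSPH, at 46.4, 37.2 and 35.7 CPM, was above all Ctrl libraries, with a wide error (log2 0.46 ± 0.16, edgeR adjusted p = 0.154; DESeq2 adjusted p = 0.0439). The cytosolic pair and MTHFD1L were not called: SHMT1 differed by 0.032 ± 0.035, MTHFD1 by 0.029 ± 0.023 and MTHFD1L by 0.062 ± 0.057 on the log2 scale.

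With both agents, 6 members were higher than in Ctrl and none lower, beside 5.66% of tested genes called higher and 6.74% called lower. The members' median log2 fold change was 0.25, and that of all tested genes was 0.0013. ASNS reached 186, 180.4 and 167 CPM, the highest levels of any group, 1.44-fold above Ctrl (log2 0.53 ± 0.038, edgeR adjusted p = 7.58e-06). MTHFD2 reached 456, 462 and 432 CPM, 1.33-fold above Ctrl (log2 0.41 ± 0.028, edgeR adjusted p = 6.09e-06). In both genes every DBIC+Hemin library was above every library of the other 3 groups in CPM, but not in TPM. MTHFD2 ran from 240 to 278 TPM with both agents, from 252 to 264 in DBIC and from 241 to 256 in Hemin. ASNS ran from 195 to 218 TPM with both agents and from 178 to 196 in Hemin. SHMT2, at 501, 468 and 502 CPM, rose by 0.29 ± 0.036 (edgeR adjusted p = 0.000374) and ALDH1L2, at 30.2, 30.4 and 34.3 CPM, by 0.62 ± 0.092 (edgeR adjusted p = 0.00123). PHGDH, at 369.7, 363 and 364 CPM, rose by 0.12 ± 0.024 (edgeR adjusted p = 0.00739).

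PSAT1 was at 329, 343 and 297 CPM with both agents, above all Ctrl libraries (log2 0.20 ± 0.055, edgeR adjusted p = 0.0354). The call was lost without Ctrl replicate 2 or 3, without any 1 of the Hemin replicates, and without DBIC+Hemin replicate 1 or 2, where the adjusted p was 0.0502 to 0.125. It was also lost in edgeR with library size only (adjusted p = 0.0712) and with only the 2 groups in the fit (adjusted p = 0.0883). The cytosolic pair stood near Ctrl: SHMT1 at 73.4, 78.3 and 76.2 CPM differed by -0.037 ± 0.035 (edgeR adjusted p = 0.571) and MTHFD1 at 293, 292 and 289.7 CPM by 0.0071 ± 0.023 (edgeR adjusted p = 0.893). PSPH, at 44.6, 34.3 and 36.1 CPM, differed by 0.41 ± 0.16 (edgeR adjusted p = 0.128) and was called by DESeq2 (adjusted p = 0.0476). MTHFD1L, at 125, 132 and 123 CPM, differed by 0.097 ± 0.057 (edgeR adjusted p = 0.319).

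**Figure D2:**
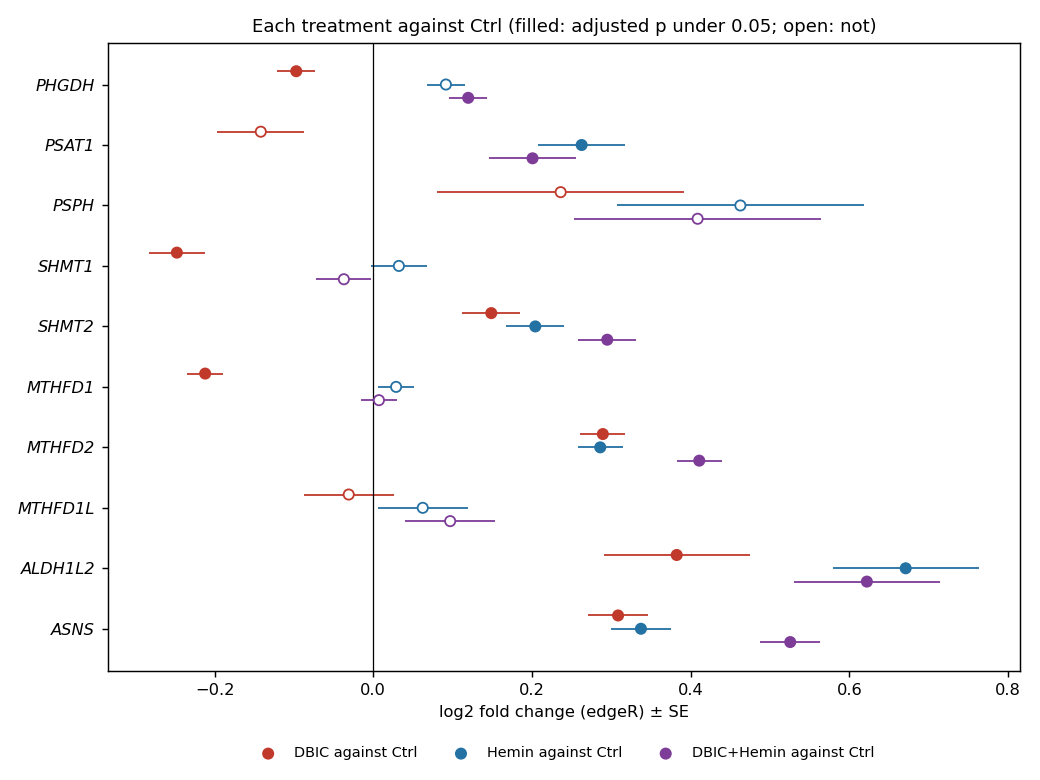
Log2 fold change against Ctrl with its SE (edgeR, 3 libraries per group) for each enzyme with DBIC, Hemin and DBIC+Hemin, with filled points where the adjusted p was under 0.05. SHMT1 and MTHFD1 lie at -0.25 and -0.21 with DBIC alone and near 0 with Hemin or both, while ALDH1L2, MTHFD2, SHMT2 and ASNS lie above 0 in all 3 comparisons.

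Set against DBIC alone, adding hemin raised 7 of the 10 members and lowered none, beside 13.5% of tested genes called higher and 18.4% called lower. The members' median was 0.21 on the log2 scale and that of all tested genes -0.01. PSAT1 rose most (log2 0.34 ± 0.055, edgeR adjusted p = 0.00068), and PHGDH by 0.22 ± 0.024 (edgeR adjusted p = 5.18e-05). The cytosolic MTHFD1 and SHMT1 rose by 0.22 ± 0.023 and 0.21 ± 0.035 (edgeR adjusted p = 3.14e-05 and 0.00086). ASNS rose by 0.22 ± 0.038, SHMT2 by 0.15 ± 0.036 and MTHFD2 by 0.12 ± 0.028 (edgeR adjusted p = 0.00114, 0.00992 and 0.00699). In each of these 7 the DBIC and DBIC+Hemin libraries did not overlap in CPM. How many of all tested genes had no overlap was not counted. In TPM the MTHFD2 libraries overlapped, at 252 to 264 in DBIC and 240 to 278 in DBIC+Hemin. The log2 difference of MTHFD2 in TPM was 0.034. ALDH1L2 differed by 0.24 ± 0.091 (edgeR adjusted p = 0.0679), and it was called without DBIC replicate 2, its highest DBIC library (log2 0.33, adjusted p = 0.0226), and without Hemin replicate 2 (adjusted p = 0.047). DESeq2 also called it (adjusted p = 0.0453). MTHFD1L differed by 0.13 ± 0.057 and PSPH by 0.17 ± 0.16 (edgeR adjusted p = 0.112 and 0.449), the latter from 0.05, without DBIC+Hemin replicate 1, to 0.31, without DBIC replicate 3. In edgeR with upper-quartile scaling 9 of the 10 were called higher, MTHFD1L (adjusted p = 0.0197) and ALDH1L2 (adjusted p = 0.0269) included. That scaling also moved all genes: 2948 were called higher and 2032 lower, against 1933 and 2626 with TMM. Their median log2 fold change was then 0.051.

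Set against Hemin alone, adding DBIC raised only ASNS and MTHFD2 among the members in the edgeR fit, beside 3.71% of tested genes called higher and 3.09% called lower. The 971 genes called in all were 612 to 625 without Hemin replicate 1 or 3 or DBIC+Hemin replicate 1, and 569 with only these 2 groups in the fit. The members' median was 0.0032 on the log2 scale, and that of all tested genes -0.0018. ASNS rose 1.14-fold (log2 0.19 ± 0.038, edgeR adjusted p = 0.0122) and MTHFD2 1.09-fold (log2 0.12 ± 0.028, edgeR adjusted p = 0.0226). The ASNS call was lost without Hemin replicate 3 (edgeR adjusted p = 0.0518). The MTHFD2 call was lost without any 1 of the 3 Hemin replicates or without DBIC+Hemin replicate 1 or 2 (edgeR adjusted p = 0.0574 to 0.0911) and with library size only (adjusted p = 0.0625). With only these 2 groups in the fit neither was called (edgeR adjusted p = 0.0793 for ASNS and 0.096 for MTHFD2). SHMT1 and MTHFD1, which fell with DBIC alone, differed here by -0.069 ± 0.035 and -0.022 ± 0.023 (edgeR adjusted p = 0.3 and 0.672), and SHMT2 by 0.091 ± 0.036 (edgeR adjusted p = 0.186).

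Whether the effect of DBIC differed between cells with and without hemin was tested directly by the interaction, the log2 fold change with hemin minus that without. It was called for 5 members, 3 higher and 2 lower, beside 6.40% of tested genes called higher and 10.2% called lower. The positive differences were those of MTHFD1 (0.19 ± 0.032, edgeR adjusted p = 0.00213), SHMT1 (0.18 ± 0.049, edgeR adjusted p = 0.0303) and PHGDH (0.13 ± 0.034, edgeR adjusted p = 0.0277), the 3 members that fell with DBIC alone. The negative differences were those of MTHFD2 (-0.16 ± 0.040, edgeR adjusted p = 0.0161) and ALDH1L2 (-0.43 ± 0.13, edgeR adjusted p = 0.0431), which rose with DBIC alone. The interaction subtracts the change with DBIC alone, from the same DBIC and Ctrl libraries, so opposite signs are partly built in. For ASNS, which rose with DBIC in both settings, the difference of -0.12 ± 0.053 was not called (edgeR adjusted p = 0.161), nor with any 1 library left out, where it ran from -0.15, without DBIC+Hemin replicate 1, to -0.076, without DBIC+Hemin replicate 3.

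The interaction of MTHFD1 was called with every library left out in turn (adjusted p at most 0.00811), as was that of MTHFD2 (at most 0.0481). That of PHGDH was lost in 7 of the 12 such fits, without Ctrl replicate 1 or 2, DBIC replicate 1 or 2, Hemin replicate 2 or 3, or DBIC+Hemin replicate 1 (adjusted p at most 0.0705). That of SHMT1 was lost in 8, without Ctrl replicate 1 or 2, DBIC replicate 2 or 3, any Hemin replicate, or DBIC+Hemin replicate 2 (at most 0.0687). That of ALDH1L2 was lost in 9, without any Ctrl replicate, DBIC replicate 2 or 3, Hemin replicate 1 or 2, or DBIC+Hemin replicate 1 or 2 (at most 0.0953). In all of these the direction stayed. In edgeR with upper-quartile scaling the 3 positive interactions were called and MTHFD2 (adjusted p = 0.0902) and ALDH1L2 (adjusted p = 0.0696) were not. Over all genes that scaling called 1497 interactions higher and 1203 lower, against 914 and 1462 with TMM. The median interaction of all genes was then 0.044.

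**Figure D3:**
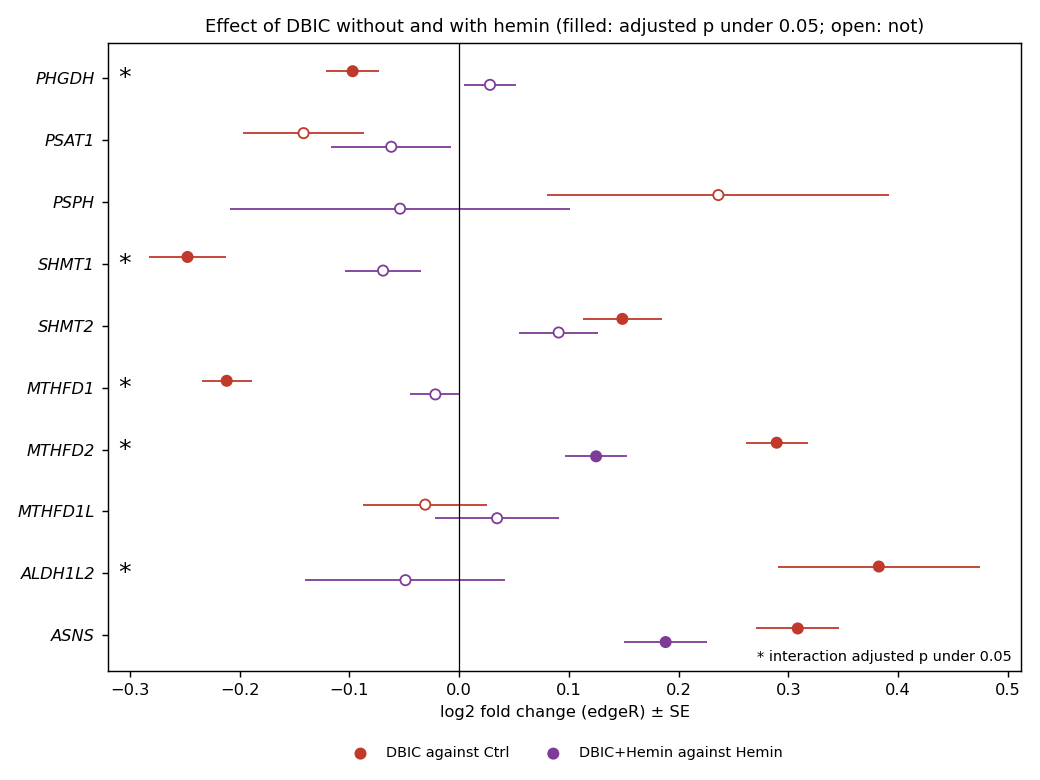
Log2 fold change of DBIC against Ctrl and of DBIC+Hemin against Hemin with its SE (edgeR, 3 libraries per group), with filled points where the adjusted p was under 0.05 and a star where the interaction was called. For SHMT1, MTHFD1 and PHGDH the point of DBIC alone is below 0 and that with hemin lies to its right, and for MTHFD2 and ALDH1L2 the point with hemin lies to its left.

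Ratios of mitochondrial to cytosolic enzyme mRNA were formed from TPM within each library, as a description with no test, since the same genes' differences are tested above. The SHMT2/SHMT1 ratio was 5.33, 6.24 and 6.15 in Ctrl, 8.07, 8.45 and 7.94 in DBIC, 6.69, 6.80 and 6.84 in Hemin, and 8.27, 7.06 and 8.09 in DBIC+Hemin. Its lowest DBIC library was above every Ctrl and Hemin library and inside the range of DBIC+Hemin. The MTHFD2/MTHFD1 ratio was 1.04, 1.06 and 1.06 in Ctrl, 1.5, 1.45 and 1.56 in DBIC, 1.30, 1.20 and 1.26 in Hemin, and 1.40, 1.44 and 1.24 in DBIC+Hemin. It was highest in the 3 DBIC libraries, where MTHFD2 was higher and MTHFD1 lower than in Ctrl. In contrast, the MTHFD1L/MTHFD1 ratio ran from 0.434 to 0.572 over all libraries, and its ranges in the 4 groups overlapped.

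**Figure D4:**
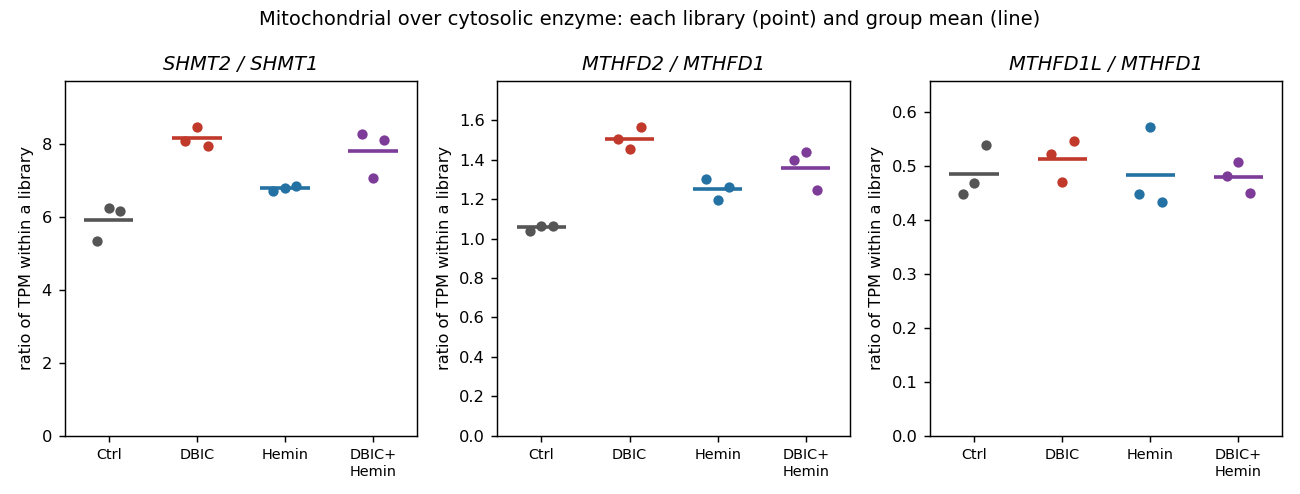
Ratio of TPM within a library (linear axis from 0) for SHMT2/SHMT1, MTHFD2/MTHFD1 and MTHFD1L/MTHFD1, with 1 point per library and a line at each group's mean. The DBIC libraries sit at 7.94 to 8.45 and 1.45 to 1.56 in the left and middle panels, above all Ctrl libraries, and the groups overlap in the right panel.

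The likeness of patterns was described by Pearson's r of log2 CPM over the 12 libraries among 10678 tested genes, those that averaged 5 CPM or more. The points share libraries and treatments, so r carries the group differences, and no p is given. Among all these genes the one most like MTHFD2 was ASNS, and the one most like ASNS was MTHFD2 (r = 0.98, Spearman's rho = 0.96). SHMT1 and MTHFD1 followed each other (r = 0.94, rho = 0.82), and neither followed MTHFD2 (r = -0.22 and -0.10). SHMT2 was close to ASNS (r = 0.89) and MTHFD2 (r = 0.88), and the gene most like it was EIF2B2 (r = 0.97). PHGDH was closest to EIF3K (r = 0.96), PSAT1 to EPRS (r = 0.98), SHMT1 to CAVIN1 (r = 0.97), MTHFD1 to PTPRF (r = 0.99), PSPH to OSTM1 (r = 0.94), MTHFD1L to KATNAL1 (r = 0.91) and ALDH1L2 to YARS (r = 0.95). By Spearman's rho EPRS, CAVIN1, PTPRF and YARS were not among the 3 closest genes of these members. They ranked 28 (EPRS, rho = 0.92), 492 (CAVIN1, 0.77), 212 (PTPRF, 0.82) and 8 (YARS, 0.89), so the closest gene depends on the measure.

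Other genes of the same pathways were counted from lists of related genes, each read beside the shares of all tested genes given above. With DBIC alone, 2 of the 17 tested genes of the folate cycle and its carriers rose and 6 fell, with a median log2 fold change of -0.17. On the log2 scale thymidylate synthase TYMS fell by 0.24 ± 0.024 and SFXN3, a sideroflexin of the inner mitochondrial membrane, fell by 0.42 ± 0.034 (edgeR adjusted p = 1.35e-05 and 3.17e-06). Of the 12 purine synthesis genes 1 rose and 6 fell (median -0.13), among them PFAS (log2 -0.22 ± 0.030), ATIC (-0.22 ± 0.033), which uses 10-formyltetrahydrofolate as a carbon donor, and IMPDH1 (-0.35 ± 0.058), which leads to guanine nucleotides. Of the 4 genes of the glycine cleavage system, DLD (-0.29 ± 0.040) and AMT (-1.87 ± 0.61, at 1.21 and 0.329 CPM) fell and GCSH (-0.31 ± 0.18, edgeR adjusted p = 0.21) was not called. With hemin alone, 1 gene of the folate list rose and none of the 12 purine genes or the 4 glycine cleavage genes were called, and with both agents against DBIC, 4 folate genes rose and none fell, and 7 purine genes rose and 1 fell.

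Among 9 genes around serine use 1 rose and 2 fell with DBIC. CTH, which makes cysteine from cystathionine, rose from 13.5 to 31.7 CPM (log2 1.23 ± 0.11, edgeR adjusted p = 8.75e-06), and the phosphatidylserine synthases PTDSS1 (-0.23 ± 0.024) and PTDSS2 (-0.11 ± 0.036) fell. Of 7 methionine cycle genes MAT2A, the S-adenosylmethionine synthetase subunit, rose by 0.16 ± 0.024, whereas AHCY (-0.13 ± 0.022) and MAT2B (-0.15 ± 0.054) fell. Of 14 genes around aspartate, glutamate and proline 5 fell and none rose, among them ALDH18A1 (-0.16 ± 0.023), GOT2 (-0.22 ± 0.031) and GLUD1 (-0.20 ± 0.031). With both agents against DBIC, 8 of these 14 rose and 1 fell. With hemin alone, 1 of the 9 genes around serine use, 1 of the 7 of the methionine cycle and 2 of these 14 rose. None of the 3 lists had a gene that fell.

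Of 8 transcription factors known for these genes 5 rose and none fell with DBIC, beside 20.0% of tested genes higher and 17.2% lower. The median log2 fold change of the 8 factors was 0.75, beside 0.059 over the 10 enzymes. With hemin alone, 2 of the 8 rose and none fell, beside 1.47% of tested genes higher and 2.59% lower. ATF4 was at 457, 469.5 and 461 CPM in Ctrl, 765, 725 and 721 in DBIC, 503, 521 and 507 in Hemin, and 623, 597 and 634 in DBIC+Hemin. The 4 groups did not overlap in CPM. In the authors' TPM, Ctrl (524 to 666) overlapped Hemin (567 to 586), and DBIC (815 to 861) overlapped DBIC+Hemin (712 to 880). ATF4 rose by 0.67 ± 0.031 with DBIC (edgeR adjusted p = 3.30e-08), by 0.14 ± 0.031 with hemin (adjusted p = 0.0257) and by 0.42 ± 0.031 with both (adjusted p = 8.54e-06), and its interaction was -0.40 ± 0.043 (adjusted p = 0.00011). Its partners CEBPB (1.89 ± 0.074) and CEBPG (0.83 ± 0.052) also rose with DBIC. With both agents against DBIC, 6 of the 8 factors fell and none rose, beside 18.4% of tested genes lower and 13.5% higher. Of the 10 enzymes 7 rose in this comparison. With both against Ctrl 4 factors and 6 enzymes rose and 1 factor fell, beside 5.66% of tested genes higher and 6.74% lower. With both against Hemin 4 factors and 2 enzymes rose and 1 factor fell, beside 3.71% higher and 3.09% lower. No enzyme fell in these comparisons.

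Some counts carry limits of counting. The strand setting of the counting is not given in the sources used here, and in GENCODE 29 MTHFD2, MTHFD1, ALDH1L2, SHMT1 and SHMT2 overlap a protein-coding gene on the opposite strand, such as SLC4A5, ZBTB25, C12orf45, SMCR8 and NDUFA4L2, so that reads of the overlap may not be told apart. GENCODE 29 names pseudogenes for 6 members, 7 for MTHFD2, 4 each for PSAT1 and ASNS, and 1 each for PSPH, SHMT1 and MTHFD1, which could share reads with them. The gene length that count and FPKM imply varied over the 12 libraries 1.32-fold for PSPH, 1.20-fold for MTHFD1L, 1.105-fold for MTHFD2 and at most 1.09-fold for the other members. For PSPH the 2 measures spread differently within groups: with both agents it ran from 34.3 to 44.6 CPM but from 56.4 to 57.6 TPM, in Hemin from 35.7 to 46.4 CPM and from 57.8 to 63.5 TPM, in DBIC from 30.8 to 39.8 CPM and from 49.5 to 55.4 TPM, and in Ctrl from 24.8 to 33.6 CPM and from 37.8 to 55.4 TPM. The part of this in the wide error of PSPH was not tested.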

How the data were processed

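RNA of A375 cells was sequenced in 12 libraries (4 groups of 3). Per the labels, reads were trimmed with Trim Galore and counted with featureCounts (Subread) on hg38. The aligner, the versions, the annotation and the strand setting are not given in the sources used here. The authors deposited 1 table with, for each library, the count of reads per gene, not normalized, the TPM, which the authors scaled by gene length and to 1 sum per library, and the FPKM, which the authors scaled by gene length and depth. Every value column was matched to a sample by its name.

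Counts were tested with edgeR 4.0.16 and limma 3.58.1 in R 4.3.3: filterByExpr by group, TMM, 1 mean per group over all 12 libraries (8 residual degrees of freedom), a robust quasi-likelihood fit, and Benjamini-Hochberg adjustment over 14287 genes. SE is the absolute log2 fold change divided by the square root of F. The script was tested on simulated data. TPM was used for levels between genes and for ratios within a library, and FPKM to check the gene length. The paper's methods state no differential test for RNA-seq. Alternatives were DESeq2 1.42.0, upper-quartile scaling, library size only, no filter, a minimum of 10 counts in every library, only the groups compared, a replicate block, a minimum absolute log2 fold change of 1, and each library left out, plus log2 differences of TPM, added after seeing the data. Replicate libraries of a group correlated at 0.985 to 0.988 in log2 CPM across genes, and none of 66 pairs of libraries held identical counts.

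The members and the lists of related genes were chosen with earlier results of these data known. The text names all members, HMOX1 and ATF4, and, of each related list, the 3 genes with the smallest adjusted p in DBIC against Ctrl, except 1 gene that is not reported here. Figures were drawn with Python 3 and matplotlib.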

Additional observations from a re-analysis of the deposited data

Results flagged for a closer look

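The effect of DBIC differed between cells with and without hemin for 5 of the 10 enzymes by the interaction term of edgeR's quasi-likelihood test, with 3 libraries in each of the 4 groups. For MTHFD1 the log2 fold change of DBIC was 0.19 higher with hemin than without (adjusted p = 0.00213), for SHMT1 0.18 higher (adjusted p = 0.0303) and for PHGDH 0.13 higher (adjusted p = 0.0277). All 3 DBIC libraries were below all Ctrl libraries in these genes, and against Hemin the DBIC+Hemin libraries overlapped for MTHFD1 and PHGDH and lay below for SHMT1. For MTHFD2 the change was -0.16 (adjusted p = 0.0161) and for ALDH1L2 -0.43 (adjusted p = 0.0431), the effect being smaller with hemin in both. The shares of all tested genes with a higher and a lower interaction were 6.40% and 10.2%. With 1 library left out in turn 2 to 5 of these calls were made, and those of PHGDH, SHMT1 and ALDH1L2 were lost in 7, 8 and 9 of the 12 fits (the libraries are named with the interaction results above), while those of MTHFD1 and MTHFD2 were kept in all 12. With upper-quartile scaling 3 were called, and MTHFD2 (adjusted p = 0.0902) and ALDH1L2 (adjusted p = 0.0696) were not. Over all genes that scaling called 1497 interactions higher and 1203 lower, against 914 and 1462 with TMM.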

How the results depend on the processing

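With a replicate block, PSAT1 lost its call in Hemin against Ctrl (edgeR adjusted p = 0.055) and in DBIC+Hemin against Ctrl (0.0675), SHMT1 lost its interaction (0.0574), ALDH1L2 gained one in DBIC+Hemin against DBIC (0.0475), and no other member's call changed. No clear pairing by number was seen: deviations of same-numbered libraries correlated at -0.046 to 0.081 over 18 pairs. Those of other numbers correlated at -0.070 to 0.076 over 36 pairs. However, 8 of 12 libraries correlated best with their own number, and this count was not tested. With a minimum absolute log2 fold change of 1, 0 members were called in every comparison. Between DBIC+Hemin and Hemin, 1 member was called with library size only and 0 with only the groups compared, and 0 to 2 with 1 library left out, against 2. For the interaction, 3 were called with upper-quartile scaling and 2 to 5 with 1 library left out, against 5. By Spearman's rho, 8 of the 30 closest genes stayed among the 3 closest. Differences that changed sign were not called: with library size only, MTHFD1 in DBIC+Hemin against Ctrl (-0.017), and, with 1 library left out, MTHFD1L in DBIC against Ctrl (-0.059 to 0.0022), in Hemin against Ctrl (-0.0019 to 0.11) and in DBIC+Hemin against Hemin (-0.011 to 0.099), where PSPH (-0.18 to 0.072) and ALDH1L2 (-0.11 to 0.036) also did. Over all genes, upper-quartile scaling moved the share of calls that were higher from 53.8% to 40.0% in DBIC against Ctrl, from 42.4% to 59.2% in DBIC+Hemin against DBIC and from 38.5% to 55.4% in the interaction, and library size only from 45.6% to 34.4% in DBIC+Hemin against Ctrl and from 54.6% to 42.3% in DBIC+Hemin against Hemin. The cause of these differences was not tested. DESeq2 added 4 member calls and lost none, and log2 differences of TPM, chosen after seeing the data, moved 9 of 60 member values by more than the spread. No filter and a minimum of 10 counts in every library left all 60 member results as they were. Within a library FPKM gives the same order of levels as TPM by construction, so it was no separate check of the order.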
